A study of Mus musculus with 8 samples.

Results

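In the mouse, 10 genes of the MHC class II pathway, here called class II genes, were followed through immune cells isolated from the brain. The cells were taken 24 hours after a single intraperitoneal injection of saline or lipopolysaccharide (LPS, 15000000 EU/kg), the endotoxin of Gram-negative bacteria. The genes were chosen by symbol among the 32227 genes of the series: *H2-Aa*, *H2-Ab1* and *H2-Eb1*, *Cd74*, *Ciita*, *H2-DMa*, *H2-DMb1*, *H2-DMb2*, *H2-Oa* and *H2-Ob*. All mice were male C57Bl/6J, labelled 5 to 6 months old, and none was perfused, so cells of the blood vessels stayed in the samples. Each of the 8 libraries came from CD45+ cells of 1 brain, captured with PIPseq, a droplet-like single-cell method. Of the 4 saline and 4 LPS brains, 2 of each were dissociated with DMSO and 2 with inhibitors of transcription and translation (actinomycin D, triptolide and anisomycin), and the libraries are named saline DMSO 1 and 2, saline inhibitors 1 and 2, LPS DMSO 1 and 2 and LPS inhibitors 1 and 2. P-values describe the spread between these libraries, in which mouse, dissociation and capture batch are mixed.

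MHC class II molecules carry peptides from endocytosed proteins to the cell surface, where CD4 T-cells read them. An α and a β chain pair in the endoplasmic reticulum with the invariant chain, encoded by *Cd74*, which fills the peptide groove and directs the complex to endosomes. There the H2-DM proteins exchange the remaining invariant chain fragment for peptide, and the H2-O proteins inhibit H2-DM. *Ciita* encodes the coactivator that class II transcription requires, recruited by factors that sit on the X and Y boxes upstream of the genes. C57BL/6 mice carry a null allele of the α chain of the E molecule, so H2-Eb1 has no partner at the surface in this strain. B-cells and dendritic cells are the usual carriers of class II, macrophages and monocytes carry it when activated, and microglia, the resident macrophages of the brain, carry little at rest.

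The proximal promoters are shown because 6 of the members hold the core of the Y box that the class II transcription complex uses. RefSeq entries (GRCm38.p6) held promoters for 7 of the 10 genes, in 8 windows of 300 bases, since *H2-DMa* had 2. The Y box core TGATTGG, searched on both strands, stood in 6 of the 8 windows against 7.82% of 32851 promoters of the same length. In the sense direction and starting 100 to 40 bases before the gene start, it stood in 1.74% of all promoters. An X-box-like GCAAC, a short word found in 35.2% of all promoters on either strand, lay 28 to 31 bases before the Y box core of *H2-Aa*, *H2-Eb1*, *H2-Oa* and *H2-Ob*. Each sequence below runs 5′ to 3′ in the direction of the gene, with the Y box core and, where found, GCAAC in capitals.
H2-Aa, chr17:34287852-34287923, minus strand: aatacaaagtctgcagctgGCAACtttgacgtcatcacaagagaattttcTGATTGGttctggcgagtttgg
H2-Eb1, chr17:34305756-34305827, plus strand: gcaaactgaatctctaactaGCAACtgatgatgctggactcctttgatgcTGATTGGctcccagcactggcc
H2-DMb1, chr17:34153078-34153149, plus strand: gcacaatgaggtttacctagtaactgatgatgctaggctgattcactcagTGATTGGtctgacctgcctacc
H2-DMb2, chr17:34145107-34145178, plus strand: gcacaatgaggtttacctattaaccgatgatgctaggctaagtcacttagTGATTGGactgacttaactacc
H2-Oa, chr17:34092284-34092355, plus strand: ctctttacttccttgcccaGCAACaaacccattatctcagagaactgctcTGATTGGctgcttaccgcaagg
H2-Ob, chr17:34238796-34238867, plus strand: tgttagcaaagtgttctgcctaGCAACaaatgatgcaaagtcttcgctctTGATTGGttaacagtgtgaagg
These letters are a description of the sequence, and neither *H2-DMa* window held the core. *H2-Aa*, *H2-Eb1* and the other H2 genes lie on chromosome 17 and *Ciita* on chromosome 16.

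Within the study's limits on counts, genes and mitochondrial reads, 119053 cells remained, 12039 to 17364 a library, with a median of 2207 to 4762.5 UMIs (unique molecules) a cell. Pairs of libraries shared 0 to 25 cell barcodes. Cells were sorted into classes by marker genes, none of them a class II gene, relative to the free RNA seen in barcodes with 1 to 99 counts, which held 15.5% to 33.7% of each library's UMIs. The classes held 1087 B-cells, 484 dendritic cells, 3059 macrophages, 4462 monocytes and 86867 microglia, and 14.6% of cells fitted no class. The number of B-cells per library was 105 to 371 after saline and 14 to 46 after LPS, and that of monocytes 124 to 288 and 683 to 1035. Some markers that did not enter the gate followed the class names: *Ighm*, the heavy chain of IgM, stood at 4274 to 5110 CPM (a gene's UMIs scaled to a common total for each class and library) in saline and 3880 to 4518 in LPS B-cells, and *Apoe* at 28786 to 36931 and 4776 to 7891 in macrophages. Others did not set a class apart. *Lyz2*, listed for monocytes, was at 6621 to 13497 CPM in saline monocytes and 9670 to 12738.5 in saline macrophages. *Selplg*, listed for microglia, was at 2845 to 3638 CPM in saline microglia. After LPS it was at 199 to 391 CPM in microglia and 209 to 499 in dendritic cells. *Itgax*, a usual dendritic cell marker, was at 138 to 231 CPM in dendritic cells after saline but 2.74 to 23.9 after LPS, so the LPS dendritic cells rest on *Ccr7* (78.3 to 544 against 3371 to 4218 CPM) and other maturity markers.

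Levels are given as CPM of the summed UMIs of a class in a library, and changes as log2 fold changes ± SE from edgeR's quasi-likelihood test on the sums, LPS against saline, with p-values adjusted over all genes tested in the class (Benjamini-Hochberg, called under 0.05). A fitted change is relative to the bulk of genes in the class. In such sums, fewer cells of a type and less RNA per cell cannot be told apart, and the share of positive cells is given separately. The plot of levels by class and library shows all members.

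**Figure D1:**
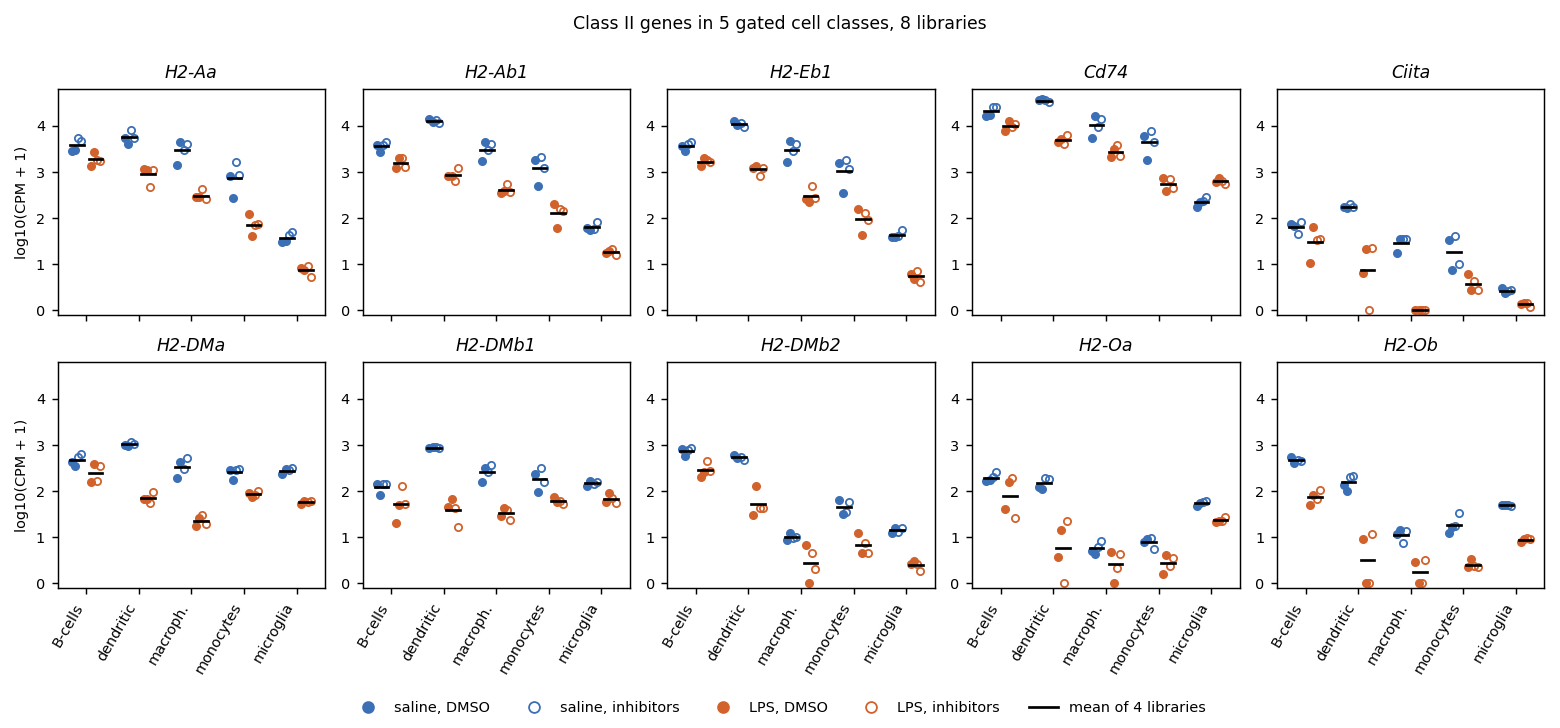
Level of each class II gene, as log10(CPM + 1), in 5 gated cell classes, with 1 point per library (4 saline in blue, 4 LPS in orange, DMSO filled, inhibitors open) and bars for the group means. In dendritic cells every LPS library lies below every saline library for all 10 genes, whereas Cd74 in microglia is the member that lies higher after LPS.

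In dendritic cells, the most potent activators of naive T-cells, all 10 members fell after LPS, against 20.5% of all genes tested in this class called lower. *H2-Ab1*, the β chain of the A molecule, stood at 13924, 11909, 13233 and 11599 CPM in the saline libraries and at 826, 838, 633 and 1208 CPM in the LPS libraries. The groups lay far apart, and the fitted change was -3.85 ± 0.21 (n = 4 and 4, edgeR adjusted p = 8.6e-09). *H2-Aa*, its α chain, was at 5422, 4072, 8385 and 5533 CPM after saline and 1141, 1084, 483 and 1107 CPM after LPS, a change of -2.61 ± 0.28. *H2-Eb1* fell by 3.26 ± 0.20 on the log2 scale. *Cd74* stood at 35813, 37713, 36102 and 32908 CPM after saline and 4559, 5183, 4058 and 6317 CPM after LPS. Its fitted change of -2.82 ± 0.17 was, with that of *H2-Aa*, the smallest of the members in this class.

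The genes of peptide loading fell in these cells too. *H2-DMa* was at 943 to 1178 CPM after saline and 53.7 to 95.8 CPM after LPS, a change of -3.89 ± 0.24. *H2-DMb1* went from 845 to 906 CPM to 16 to 66.5 CPM (-4.38 ± 0.30), and *H2-DMb2* from 482 to 610 CPM to 30.2 to 126 CPM (-3.28 ± 0.34). The subunits of the H2-DM inhibitor were lower too, *H2-Oa* by -4.16 ± 0.49 and *H2-Ob* by -4.74 ± 0.49, each with no UMI in at least 1 LPS library. *Ciita* was at 171, 163, 205 and 176 CPM after saline and 5.49, 20, 0 and 21.3 CPM after LPS (-4.02 ± 0.43). The LPS libraries together held 7 UMIs of *H2-Oa*, 5 of *H2-Ob* and 9 of *Ciita*, against 111, 119 and 125 after saline. The fitted sizes of these members therefore rest on few LPS counts. Every LPS library lay below every saline library for all 10 members, as for 19.4% of the genes tested in this class.

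The dendritic cells of the saline and LPS groups also differed in other genes. *Xcr1*, of the dendritic cell list, was at 73.7 to 145 CPM after saline and 0 after LPS, and *Clec9a* at 97.5 to 149 and 0 to 2.74 CPM. *Cd209a*, a marker of conventional type 2 cells, was at 1297 to 1910 CPM after saline and 0 to 31.9 CPM after LPS, and 129 saline cells but 1 LPS cell lacked a UMI of all 4 maturity markers (*Ccr7*, *Fscn1*, *Ccl22* and *Il4i1*). Among cells with at least 1 maturity marker, 11 to 20 per saline and 52 to 111 per LPS library, 7 of the 10 members were called lower and the others did not pass the filter on low counts (*Cd74* -2.69 ± 0.21, *H2-Ab1* -3.74 ± 0.27), against 11.6% of the genes tested in that fit. *H2-Ab1* stood there at 7927 to 13559 CPM after saline and 633 to 1208 CPM after LPS. With 2 maturity markers required, 2 to 9 saline cells per library were left, too few for the test. The groups overlapped there, with *Cd74* at 2734 to 23710 CPM after saline and 3986 to 6517 CPM after LPS. *H2-Ab1* was at 0 to 9346 and 690 to 1246 CPM. Of the cells with at least 1 marker, 25 of 64 after saline and 282 of 290 after LPS held 2, so the groups of that fit were not matched in maturity. *Marco*, a scavenger receptor gene at 1599 to 3823 CPM in LPS microglia, was also found in the other 4 classes after LPS, in dendritic cells at 120 to 2715 CPM against 0 to 3.73 CPM after saline, and *C1qa* at 1179 to 2011 against 372 to 707 CPM. In dendritic cells B-cell markers summed to 384 to 1020 CPM after saline and 99.8 to 287 CPM after LPS (1 of 10 at 0 after saline and 3 after LPS), monocyte markers to 1196 to 1691 and 326 to 532 CPM (1 of 14 at 0 after LPS) and microglial markers to 1950 to 3016 and 697 to 1014 CPM (0 of 13 at 0). In microglia the microglial markers themselves summed to 43801 to 45783 CPM after saline and 7796 to 9317 CPM after LPS. A lower microglial sum, here or in another class, is therefore no measure of less microglial RNA. The part of these in the result was not tested.

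In B-cells, which present the antigen bound by their receptor, 6 of 10 members fell and 4 were not called, against 4.75% of all genes tested in B-cells called lower. *Cd74* stood at 16479, 16952, 25221 and 25955 CPM after saline and 7890, 12764, 9461 and 10971 CPM after LPS, a change of -0.92 ± 0.27 (adjusted p = 0.029). *H2-Ab1* was at 3851, 2754, 3896 and 4432 CPM after saline and 1234, 2028, 2030 and 1274 CPM after LPS (-1.11 ± 0.24, adjusted p = 0.0038). Neither gene's groups overlapped. *H2-Aa* (-0.94 ± 0.27) and *H2-Eb1* (-1.03 ± 0.23) had changes of about the same size.

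*H2-Ob* had the largest change among the B-cell members, from 416 to 552 CPM after saline to 49.7 to 103 CPM after LPS (-2.45 ± 0.30, adjusted p = 1.1e-05). Its partner *H2-Oa* ranged from 163 to 259 CPM and from 25.8 to 196 CPM, with overlapping groups, and was not called (-1.18 ± 0.42, adjusted p = 0.082). *H2-DMb2* fell, from 588 to 885 to 199 to 458 CPM (-1.33 ± 0.26), whereas *H2-DMb1* (-1.18 ± 0.44, adjusted p = 0.091), *H2-DMa* (-0.70 ± 0.31, adjusted p = 0.17) and *Ciita* (-0.90 ± 0.49, adjusted p = 0.27) were not called. For 6 members every LPS library lay below every saline library, which 11.4% of the genes tested in B-cells did. The B-cell calls were the least firm: 1 member was called in the DMSO libraries alone, 3 in the inhibitor libraries alone and 3 without LPS DMSO 1. *Vpreb3*, a gene of immature B-cells, was at 959 to 1694 CPM after saline and 250 to 1277 CPM after LPS. In B-cells with no UMI of *Vpreb3* and 4 other precursor genes, 9 of the 10 members were called lower and 1 did not pass the filter (*Cd74* -1.49 ± 0.18), against 20.4% of the genes tested in that fit, a larger background than in all B-cells. These cells numbered 47 to 172 per saline and 6 to 37 per LPS library. A library with under 10 of them was left out, so fewer than 4 LPS libraries entered that fit. In all B-cells, dendritic cell markers summed to 350 to 530 CPM after saline and 64.4 to 229 CPM after LPS (9 of 16 at 0 after LPS), and macrophage markers to 181 to 614 and 34.4 to 360 CPM (1 of 12 at 0 after saline and 5 after LPS). Microglial markers summed there to 1491 to 2288 and 274 to 655 CPM (3 of 13 at 0 after LPS), whereas monocyte markers were higher after LPS, 1139 to 1313 and 1714 to 2270 CPM (1 of 14 at 0 after saline and 4 after LPS). The B-cells' own markers summed to 13535 to 14741 and 8806 to 9788 CPM (0 of 10 at 0). The part of these shifts in the B-cell result was not tested.

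In macrophages, which line the vessels and meninges of the brain, 7 of the 10 members were called lower and 3 did not pass the filter on low counts, against 23.9% of the genes tested in macrophages. *Ciita*, among the 7, had 0 UMIs after LPS and so passed the filter through the saline libraries alone. *H2-Ab1* stood at 1698, 4409, 2952 and 4014 CPM after saline and 350, 393, 559 and 369 CPM after LPS (-2.66 ± 0.27, adjusted p = 1.1e-06). *H2-Aa* (-3.07 ± 0.31) and *H2-Eb1* (-3.10 ± 0.32) fell by similar amounts. *Cd74* was at 5356, 16326, 9665 and 13883 CPM after saline and 2147, 3125, 3825 and 2258 CPM after LPS, and its change was smaller, -1.69 ± 0.30 (adjusted p = 0.00023). Saline DMSO 1 was the lowest saline library for each of these genes, yet lay above all LPS libraries.

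*Ciita* was read 130 times in the saline macrophages, at 16.5, 34.8, 33.9 and 34.3 CPM, and 0 times in the 4 LPS libraries. Counted against a floor of 3 UMIs over the LPS group, this is at least 32.9-fold lower, for counting error only. *H2-DMa* fell from 195 to 524 CPM to 16.3 to 29.7 CPM (-3.70 ± 0.32) and *H2-DMb1* from 161 to 362 CPM to 23.1 to 42.4 CPM (-2.76 ± 0.27). *H2-DMb2* (7.58 to 11.6 and 0 to 5.75 CPM), *H2-Oa* (3.32 to 7.22 and 0 to 3.83 CPM) and *H2-Ob* (6.49 to 13.3 and 0 to 2.20 CPM) were near 0 in macrophages of both groups and were not tested. Over all 10 members, 9 had every LPS library below every saline library, and so had 33% of the genes tested in macrophages. *Cd74* fell both in macrophages with a UMI of *Mrc1*, the mannose receptor (-1.68 ± 0.29), and in those without (-2.74 ± 0.29). The saline cells without one numbered 58, with 8 to 20 per library, and a library with under 10 was left out of that fit. B-cell markers summed to 629 to 729 CPM in saline and 173 to 221 CPM in LPS macrophages (2 of 10 at 0 after LPS), dendritic cell markers to 372 to 531 and 112 to 145 CPM (1 of 16 at 0 after saline and 3 after LPS), and the macrophages' own markers to 18074 to 22185 and 6645 to 6859 CPM. Microglial markers had the widest shift of another class there, from 4701 to 6049 to 595 to 866 CPM (0 of 13 at 0), but they were lower in LPS microglia too. Neutrophil markers were higher after LPS, 228 to 376 and 608 to 731 CPM (0 of 12 at 0). Their part in the result was not tested.

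In monocytes, the circulating precursors of macrophages, 9 of the 10 members were called lower and 1 did not pass the filter, against 14.4% of the genes tested in monocytes. *Cd74* stood at 6081, 1863, 7972 and 4555 CPM after saline and 745, 394, 716 and 458 CPM after LPS (-3.00 ± 0.37, adjusted p = 8.4e-05). *H2-Ab1* was at 1829, 492, 2115 and 1228 CPM after saline and 204, 59.4, 161 and 141 CPM after LPS (-3.18 ± 0.41). Saline DMSO 2 was lowest in both genes and still above every LPS library. Few cells carried much of these levels. The top 1% of monocytes held 19.2% to 27.0% of the *Cd74* UMIs after saline and 32.4% to 44.1% after LPS. For *H2-Ab1* it was 21.5% to 31.7% and 41.1% to 61.3%. *H2-Aa* (-3.40 ± 0.45), *H2-Eb1* (-3.41 ± 0.45), *H2-Ob* (-3.47 ± 0.42), *H2-DMb2* (-2.65 ± 0.37) and *Ciita* (-2.61 ± 0.54) fell as well. *H2-DMa* was at 175 to 296 CPM after saline and 73.3 to 100 CPM after LPS, a smaller change of -1.46 ± 0.19, and *H2-DMb1* changed by -1.56 ± 0.28. *H2-Oa* (4.63 to 8.85 and 0.64 to 3.14 CPM) did not pass the filter. All 10 members had every LPS library below every saline library, against 16.9% of the genes tested in monocytes. *Ly6c2*, a marker of classical monocytes, was at 1769 to 3686 and 2826 to 3908 CPM. Without thinning, 478 of 933 saline and 3011 of 3529 LPS monocytes held a UMI of it. In these cells *Cd74* stood at 909 to 6863 and 270 to 495 CPM, and *H2-Ab1* at 227 to 1991 and 37.4 to 135 CPM. *Itgal*, listed for monocytes, was at 294 to 704 and 148 to 208 CPM in the class, and *Itgax* at 27.6 to 116 and 6.25 to 10.6 CPM. B-cell markers summed to 441 to 661 CPM in saline and 126 to 135 CPM in LPS monocytes (1 of 10 at 0 after LPS), dendritic cell markers to 337 to 494 and 218 to 323 CPM (1 of 16 at 0 after saline) and microglial markers to 1648 to 3072 and 399 to 601 CPM (0 of 13 at 0). Their part in the result was not tested. In the DMSO libraries alone *Ciita* (-1.92) and *H2-DMb1* (-1.06) were not called.

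Microglia differed from the other classes in *Cd74*, which rose while the other 9 members were called lower. Of the genes tested in microglia, 35.1% were called lower and 30.3% higher, so that a call by itself says little about a member in this class. *Cd74* stood at 172, 224, 232 and 291 CPM in the saline libraries and at 619, 735, 625 and 547 CPM in the LPS libraries (2.18 ± 0.19, adjusted p = 7.7e-07). After saline 40.9% to 47.6% of these UMIs lay in the 1% of microglia with the most, and after LPS 8.03% to 9.45%. *H2-Ab1* was at 59.1, 54.3, 56.7 and 81.5 CPM after saline and 16.9, 18.5, 20.6 and 15 CPM after LPS (-1.11 ± 0.15, adjusted p = 4.3e-05). The 1% of microglia with the most *H2-Ab1* UMIs held 37.1% to 48.1% of them after saline and 40.1% to 45.9% after LPS. *H2-Aa* went from 29.2 to 48.3 CPM to 4.27 to 8.04 CPM (-1.81 ± 0.20) and *H2-Eb1* from 37.5 to 55.6 CPM to 3.23 to 6.09 CPM (-2.51 ± 0.19). The groups did not overlap for any member, with 9 below and 1 above, whereas every LPS library lay below every saline library for 59.3% of the genes tested in microglia.

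The genes of peptide loading and its inhibitor were also read in microglia. *H2-DMa* stood at 231 to 311 CPM after saline, within the range of saline macrophages, and 52.8 to 61.0 CPM after LPS (-1.56 ± 0.15). *H2-Ob* was at 48.7, 48.8, 49.3 and 47.4 CPM after saline and 6.97, 8.13, 8.55 and 8.02 CPM after LPS (-1.88 ± 0.10). *H2-Oa* was at 45.7 to 60.8 CPM after saline, above every saline macrophage and monocyte library, and 20.3 to 26.2 CPM after LPS (-0.56 ± 0.15, adjusted p = 0.0067). *H2-DMb1* was at 129 to 163 and 53.1 to 90.1 CPM, and its call was borderline (-0.40 ± 0.16, adjusted p = 0.046). It was called in 11 of 23 alternatives, and its adjusted p ran from 2.4e-05 (library totals alone) to 0.46 (DMSO libraries alone), with 0.14 from DESeq2. The call was lost without any 1 library other than saline DMSO 1 and LPS DMSO 2. *H2-DMb2* (11.5 to 15.2 and 0.82 to 2.09 CPM) and *Ciita* (1.35 to 2.00 and 0.19 to 0.42 CPM) were near 0 in both groups, with changes of -2.42 ± 0.24 and -1.55 ± 0.24.

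The size of the microglial changes depended on the scaling. With library totals alone, the median change of all microglial genes was -0.93 instead of -0.18, *Cd74* changed by 1.46 ± 0.15, *H2-Ab1* by -1.83 ± 0.15 and *H2-DMb1* by -1.12 ± 0.15. All 10 directions were the same on both scales. Relative log expression factors moved the median of all genes by 0.11. The median depth of a microglial cell was 2217 to 3195 UMIs after saline and 4690.5 to 5455 after LPS.

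**Figure D2:**
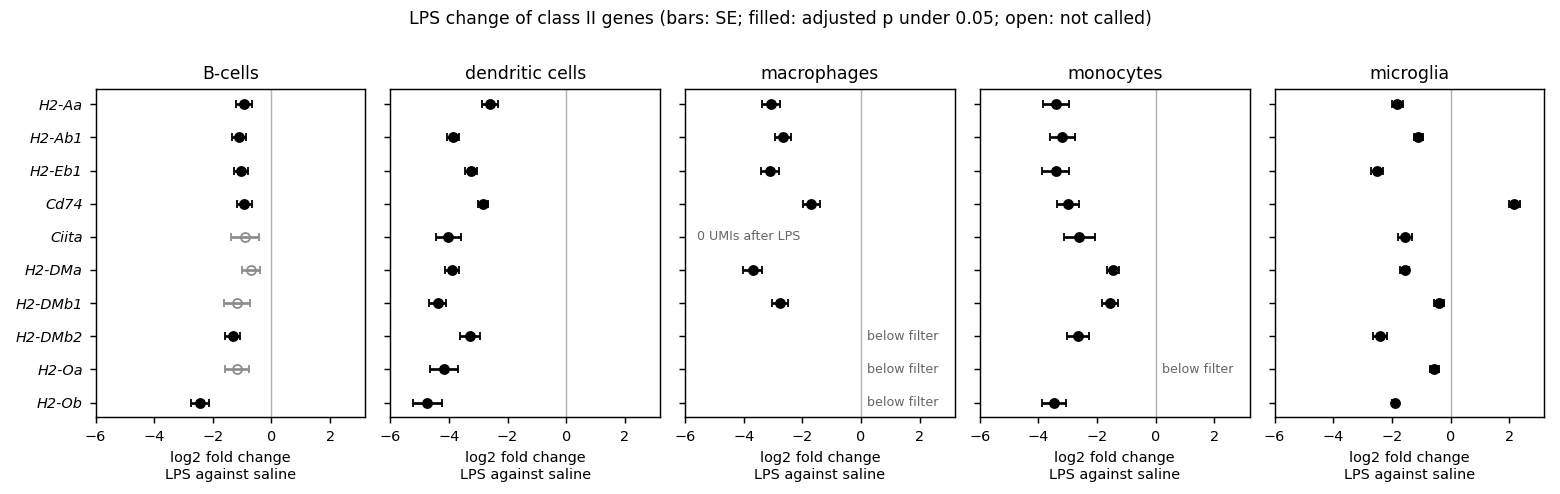
Fitted log2 fold change of each member, LPS against saline, in each class, with bars for ± 1 SE (n = 4 and 4 libraries), filled points for calls at adjusted p under 0.05 and open grey points for members not called. The points lie left of 0 in every class except Cd74 in microglia, at 2.18, and in dendritic cells they run from -4.74 to -2.61. The lowest of these, H2-Ob, rests on 5 UMIs over the LPS libraries.

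The difference between classes was tested as the LPS change of 1 class minus that of another, for 4 pairs. Microglia and macrophages differed in 7 of 10 members, against 21.9% of all genes tested for this pair. *Cd74* had the largest such fitted difference among members with UMIs in all groups, -3.75 ± 0.12 (macrophages minus microglia). Its CPM ratio of macrophages over microglia had a mean log2 of 5.52 in saline and 2.13 in LPS libraries (exact two-sided permutation p = 0.0286, the smallest that 4 against 4 allows). *H2-Ab1* (-1.44 ± 0.12), *H2-DMa* (-2.01 ± 0.18) and *H2-DMb1* (-2.25 ± 0.17) also fell further in macrophages, each with the same exact p. For the 3 classical chains in both groups, and for *Cd74* after saline, the microglial share of positive cells was no higher than in neutrophils, so these differences are set against microglial levels not told from background. *H2-Aa* (-1.10 ± 0.13, exact permutation p = 0.0571) and *H2-Eb1* (-0.46 ± 0.13, exact permutation p = 0.343) were called in the fit but not past the permutation test, and *H2-Eb1* was not called with library totals alone (-0.10), with RLE factors (-0.28), with no filter (-0.30), or without saline DMSO 2 (-0.06), saline inhibitors 1 (-0.29) or saline inhibitors 2 (-0.31). The seventh call, *Ciita*, rests on the 0 UMIs of LPS macrophages. The fit of this pair allots little spread to single genes, so the permutation values are given beside it. Relative log expression factors moved the median of all genes by 0.19 in this pair.

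B-cells and dendritic cells differed in all 10 members, against 11.4% of the genes tested for that pair, and in 6 with no filter on low counts. The dendritic cells of the saline and LPS groups differed in *Cd209a*, *Xcr1*, *Clec9a* and maturity markers, as given above. The part of this in the pairs with dendritic cells was not tested. The difference, B-cells minus dendritic cells, was 2.57 ± 0.26 for *H2-Ab1*, 1.72 ± 0.23 for *Cd74*, 2.90 ± 0.37 for *H2-DMa* and 1.98 ± 0.69 for *H2-Ob*. The exact permutation p was 0.0286 for 9 members and 0.114 for *H2-Oa*. With no filter on low counts, *Ciita* (2.25), *H2-DMb2* (1.27) and *H2-Oa* (2.12) were not called, and *Ciita* was also lost without LPS DMSO 2 (2.58). LPS dendritic cells held 9 UMIs of *Ciita*, 7 of *H2-Oa* and 5 of *H2-Ob*, so these differences rest on few LPS counts. The *H2-Ob* call was lost with library totals alone (2.01), free RNA subtracted (1.87) and no filter on low counts (1.5), and without saline inhibitors 1 (1.90), saline inhibitors 2 (1.82), LPS DMSO 2 (1.66), LPS inhibitors 1 (1.80) or LPS inhibitors 2 (2.05). Dendritic cells and macrophages differed in 4 of 10 members, against 15.5% of genes, with dendritic cells falling further in *H2-Ab1* (-1.08 ± 0.27), *Cd74* (-1.03 ± 0.26) and *H2-DMb1* (-1.48 ± 0.35). Of these, *H2-DMb1* had an exact permutation p of 0.0286, *H2-Ab1* 0.0857 and *Cd74* 0.114. The fourth call, *H2-Oa*, entered this pair through dendritic cells, since macrophages held 23 saline and 8 LPS UMIs of it, and it was lost without LPS DMSO 1 (-2.31). With 1 library left out, 3 to 6 members were called: 3 without LPS DMSO 1 and 6 without saline DMSO 1, where *H2-Aa* (0.92) and *Ciita* (3.29) were added with dendritic cells falling less. Monocytes and macrophages differed in 2 of 9 members, against 13.3% of genes: *H2-DMa*, which fell less in monocytes (2.15 ± 0.36), and *Ciita*, again with the 0 of macrophages. Without saline DMSO 2, 6 members were called in this pair, and without any 1 of 5 other libraries (saline inhibitors 2 or an LPS library) 1 was called.

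The order of the classes also changed, with dendritic cells that differed in maturity markers between the saline and LPS groups. After saline the order for *H2-Ab1* was dendritic cells (mean 12666 CPM), B-cells (3733), macrophages (3268), monocytes (1416) and microglia (62.9). B-cells overlapped with macrophages and macrophages with monocytes, while dendritic cells and microglia stood apart. After LPS B-cells led (1641 CPM), followed by dendritic cells (876), macrophages (418), monocytes (141) and microglia (17.7), and no neighbours overlapped. For *Cd74*, dendritic cells (35634 CPM) were above B-cells (21152) after saline and below them after LPS (5029 and 10271). Microglia, the lowest class for *Cd74* after saline (230 CPM), overlapped with monocytes after LPS (632 and 578 CPM). For *H2-Oa* and *H2-Ob*, saline microglia (55.2 and 48.5 CPM) stood below dendritic cells and above monocytes and macrophages with no overlap.

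*Cd74* was set beside *H2-Ab1* as UMIs of 1 per UMI of the other, a ratio without length scaling that is compared only between groups. In microglia it was 2.91 to 4.12 after saline and 30.4 to 39.7 after LPS, where the chains in both groups and *Cd74* after saline did not exceed the shares seen in neutrophils and T-cells, so that this ratio rests in part on levels not told from background. In macrophages it was 3.15 to 3.70 and 6.12 to 7.94, and in dendritic cells 2.57 to 3.17 and 5.23 to 6.42. In these 3 classes the groups did not overlap (exact permutation p = 0.0286 each, 0.0592 after adjustment over the 29 ratios computed). The ranges of B-cells (4.28 to 6.47 and 4.66 to 8.61) and monocytes (3.32 to 3.79 and 3.25 to 6.64) overlapped. The *H2-DMa* to *H2-Ab1* ratio was 3.82 to 5.55 in saline and 2.76 to 4.08 in LPS microglia and at or below 0.355 in saline libraries of every other class. It was 0.136 to 0.355 in saline and 0.441 to 1.24 in LPS monocytes and 0.0955 to 0.130 and 0.0466 to 0.0654 in macrophages, both without overlap (exact permutation p = 0.0286 each, 0.0592 adjusted over the 29 ratios), and the ranges of B-cells and dendritic cells overlapped.

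**Figure D3:**
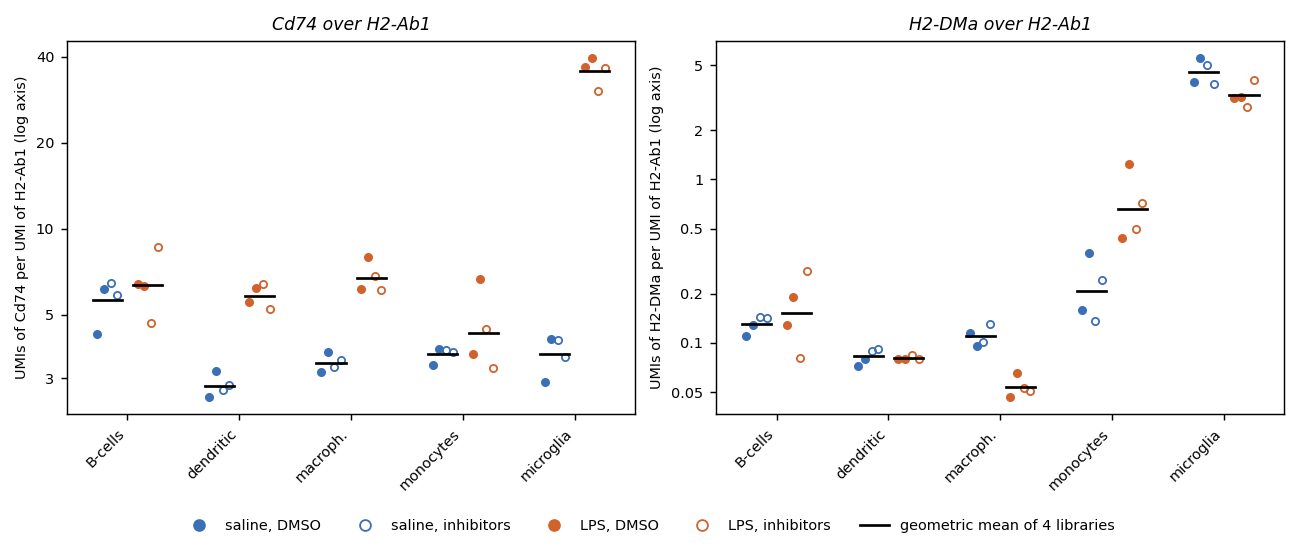
UMIs of Cd74 (left) and H2-DMa (right) per UMI of H2-Ab1 on log axes, with 1 point per library and bars for geometric means of 4 libraries. Cd74 per H2-Ab1 is 2.91 to 4.12 in saline and 30.4 to 39.7 in LPS microglia, and H2-DMa per H2-Ab1 is higher in microglia than in the other classes.

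Shares of cells with a UMI were compared after thinning every cell to 800 UMIs, so that depth was equal. Neutrophils and T-cells, which should hold little class II in mice, gave the background, and they were not clean: 13.6% to 30.6% of saline and 0.749% to 3.37% of LPS neutrophils held a UMI of *H2-Aa*, *H2-Ab1* or *H2-Eb1*. These 3 chains were seen in 5.88% to 8.45% of saline and 1.61% to 2.02% of LPS microglia, within or below the neutrophil shares, so that by this measure they cannot be told from background. The source of these UMIs was not tested. Other classes overlapped with this background too. The 3 chains were seen in 17.0% to 35.4% of saline monocytes and 27.2% to 50.6% of saline macrophages, overlapping with saline neutrophils and with saline T-cells (15.7% to 29.8%), so that neither class stood wholly above it. After LPS monocytes (5.71% to 10.3%) lay above neutrophils but overlapped with T-cells (1.69% to 7.69%), and macrophages (12.1% to 16.5%) lay above both. *Cd74* in saline monocytes (35.9% to 55.9%) and macrophages (35.5% to 59.4%) overlapped with the highest saline neutrophil library. Dendritic cells and B-cells lay above both background classes in both groups for the chains and for *Cd74*. *Cd74* was seen in 8.85% to 12.4% of saline microglia, below saline neutrophils (18.9% to 36.4%) and T-cells (16.5% to 28.6%), and likewise cannot be told from background there. After LPS it was seen in 30.6% to 37.5% of microglia, above LPS neutrophils (2.46% to 6.32%) and T-cells (6.49% to 11%). Median depths before thinning were 1407 to 2268.5 UMIs in neutrophils and 2116 to 3826 in T-cells.

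*H2-DMa* was seen in 15.5% to 20.5% of saline microglia, above saline neutrophils (2.91% to 7.50%) and T-cells (4.13% to 8.33%), and in 4.13% to 5.37% of LPS microglia, above LPS neutrophils (0.351% to 1.44%) and T-cells (1.37% to 3.9%). *H2-DMb1* was seen in 9.22% to 12% and 4.25% to 7.02% of microglia, beside 2.50% to 4.63% and 0.702% to 1.40% of neutrophils and 1.65% to 7.14% and 0% to 5.08% of T-cells, so that after LPS it overlapped with T-cells. *H2-Oa* was seen in 3.38% to 4.70% of saline microglia, within the range of saline neutrophils (0% to 5%) and T-cells (0% to 4.76%), and in 1.5% to 2.16% of LPS microglia, overlapping with LPS T-cells (0% to 1.54%). *H2-Ob* (3.52% to 3.87% and 0.580% to 0.715%) overlapped with the saline background, which reached 3.70% of neutrophils and 3.55% of T-cells. In dendritic cells the share with 1 of the 3 chains fell from 91.9% to 95.1% to 33.3% to 50.7%, while *Cd74* was still found in 65.4% to 79.5% of LPS cells (94.4% to 97.6% after saline). In B-cells the same shares overlapped, 78.4% to 90.8% and 74.3% to 87.0% for the chains and 86.8% to 94.6% and 78.6% to 100% for *Cd74*.

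Taking the chains and *Cd74* as 1 measure, the share of positive cells was 97.8% ± 0.496 (SD, n = 4) in saline and 82.6% ± 3.92 in LPS dendritic cells (exact permutation p = 0.0286, 0.0476 adjusted over the 5 classes). It was 52.1% ± 9.72 and 18.9% ± 4.18 in monocytes and 16.2% ± 2.27 and 34.3% ± 2.96 in microglia, each with the same p. Neither macrophages (49.1% ± 11.1 and 33.4% ± 4.59, exact permutation p = 0.0571) nor B-cells (92.5% ± 2.73 and 93.0% ± 6.95, exact permutation p = 0.886) passed the test. Taken apart, in macrophages the share with 1 of the 3 chains was 27.2% to 50.6% after saline and 12.1% to 16.5% after LPS, and that with *Cd74* 35.5% to 59.4% and 31% to 35.4%, neither with overlap (exact permutation p = 0.0286 each, unadjusted). Without thinning, the dendritic cell shares overlapped and the difference was 2.54 percentage points in place of 15.2, with LPS lower (exact permutation p = 0.0857), and 39.8% of saline and 75.2% of LPS microglia were positive. At 1500 UMIs the dendritic cell difference was 5.54 points (LPS lower).

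**Figure D4:**
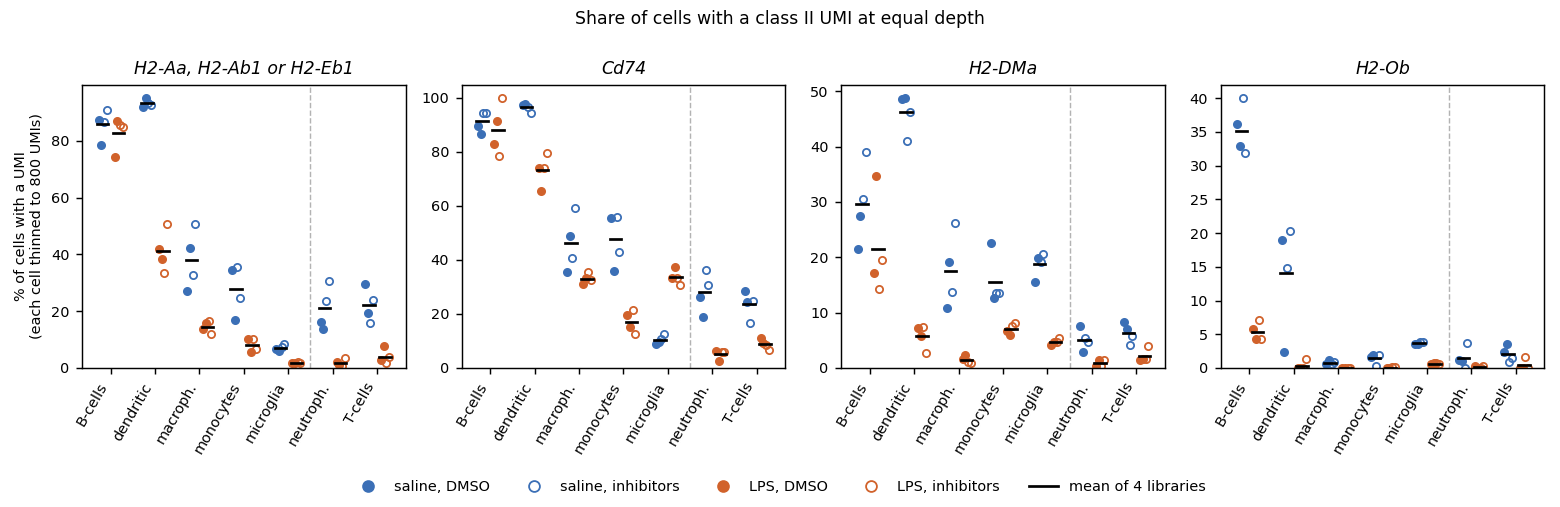
Percent of cells with at least 1 UMI of the classical chains, Cd74, H2-DMa or H2-Ob, each cell thinned to 800 UMIs, by class, with 1 point per library and bars for means of 4. To the right of the dashed line stand neutrophils and T-cells as background, and Cd74 in LPS microglia (30.6% to 37.5%) lies above that background while the classical chains do not.

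In 29.9% to 36.3% of LPS microglia, thinned to 800 UMIs, *Cd74* was found with none of the 3 chains, against 8.08% to 10.6% after saline, where *Cd74* itself was not told from background.

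Free RNA carried class II transcripts and fell with LPS as well. In barcodes with 1 to 99 counts *Cd74* was at 1130 to 1515 CPM after saline and 506 to 736 CPM after LPS, 2.18-fold lower, and *H2-Ab1* at 305 to 449 and 48.7 to 94.5 CPM, 6.23-fold lower. All 10 members were lower in the free RNA of every LPS library, from 2.08-fold for *H2-DMb1* to 8.74-fold for *H2-DMb2* (exact permutation p = 0.0286 each). So were 35% of all genes with at least 10 free UMIs. By the haemoglobin genes, free RNA made up 2.90% to 4.78% of microglial UMIs. That amount gives 14.8% to 51.4% of the *H2-Eb1* level in microglia, 10.6% to 35.1% of *H2-Aa*, 2.86% to 25.9% of *Cd74* and 2.78% to 4.34% of *H2-DMa*. With free RNA subtracted, *Cd74* changed by 2.55 ± 0.22 and *H2-Aa* by -1.51 ± 0.23 in microglia. B-cell markers summed to 1051 to 1149 CPM in saline and 244 to 285 CPM in LPS microglia, and dendritic cell markers to 618 to 643 and 223 to 271 CPM, with none of either list at 0. The microglia's own markers summed to 43801 to 45783 and 7796 to 9317 CPM (0 of 13 at 0), so that they were lower after LPS as the 9 members were. The part of these in the microglial result was not tested.

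The comparison of DMSO with inhibitors asks whether dissociation itself alters the members. Between DMSO and inhibitor libraries, with the in vivo treatment in the model, 0 members were called in each class by edgeR or DESeq2, and 0 had an unadjusted p under 0.05 in edgeR. Over all genes tested, 0.164% were called in B-cells, 0.609% in dendritic cells, 0.548% in macrophages, 0.0519% in monocytes and 0.377% in microglia. *Cd74* differed by -0.13 ± 0.19 in microglia and -0.36 ± 0.29 in B-cells (DMSO minus inhibitors), and *H2-Ab1* by -0.02 ± 0.21 in dendritic cells. For the difference of the LPS change between DMSO and inhibitor libraries, 0 members were called by either tool. There the background was 0.0272% in B-cells, 0% in dendritic cells, 0% in macrophages, 0.00808% in monocytes and 0.0228% in microglia, and 1 member, *H2-Aa*, had an unadjusted edgeR p under 0.05 in dendritic cells, monocytes and microglia. With 2 libraries per combination, small differences were not detectable.

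The rest of the pathway was followed with 5 further lists, and each count is read beside the share of all genes tested that were called in that class. These shares were 4.75% lower and 4.98% higher in B-cells, 20.5% and 20.5% in dendritic cells, 23.9% and 23.8% in macrophages, 14.4% and 14% in monocytes and 35.1% and 30.3% in microglia.

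Class I presentation, by which cells show peptides of their own cytosol, had 6 of 10 tested genes higher in B-cells (4.98% of all genes), 3 of 11 in dendritic cells (20.5%), 7 of 12 in macrophages (23.8%), 4 of 12 in monocytes (14%) and 10 of 12 in microglia (30.3%), and 1 lower in dendritic cells and in microglia. *Tap1*, a subunit of the peptide transporter, rose in B-cells (1.64 ± 0.26), macrophages (1.03 ± 0.16), monocytes (0.90 ± 0.22) and microglia (1.35 ± 0.12), and *Tap2*, its partner, in dendritic cells (0.89 ± 0.34). *Tapbp*, which links the transporter to class I, rose in B-cells (1.05 ± 0.24), macrophages (0.84 ± 0.14) and monocytes (1.13 ± 0.18). Of the immunoproteasome subunits, *Psmb9* rose in B-cells (1.10 ± 0.28), *Psmb10* in B-cells (0.80 ± 0.25), macrophages (0.97 ± 0.18), monocytes (1.77 ± 0.21) and microglia (1.33 ± 0.15), and *Psmb8* in dendritic cells (0.82 ± 0.21), monocytes (0.71 ± 0.20) and microglia (0.85 ± 0.18). *B2m*, the light chain, rose in B-cells (0.85 ± 0.21), dendritic cells (0.47 ± 0.16), macrophages (0.58 ± 0.15) and microglia (1.28 ± 0.18). *Calr*, a chaperone, fell in dendritic cells (-1.12 ± 0.24) and microglia (-0.46 ± 0.14). The heavy chain *H2-K1* rose in B-cells (0.74 ± 0.21), macrophages (1.32 ± 0.17) and microglia (1.43 ± 0.14), and *H2-D1* in macrophages (0.60 ± 0.17) and microglia (1.35 ± 0.18), where so did *Nlrc5*, the class I counterpart of *Ciita* (1.38 ± 0.20). Direction in microglia depended on the scale for *Tap2* and *Tapbp*, called higher but with mean CPM of 62.6 and 428 after saline and 51.1 and 321 after LPS. *Psmb8* was called higher in microglia with overlapping CPM, 207 to 293 after saline and 227 to 326 after LPS.

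Among 14 transcription factors and regulators of class II, none of the 5 tested was called in B-cells. In dendritic cells 2 of 6 were lower and 1 higher (20.5% and 20.5% of all genes): *Irf8* (-3.15 ± 0.34) and *Irf4* (-1.93 ± 0.42), interferon regulatory factors of dendritic cell development, fell, and *Socs1*, an inhibitor of cytokine signalling, rose (1.23 ± 0.39). In macrophages 6 of 13 were lower and 1 higher (23.9% and 23.8%). *Irf4* went there from a mean of 23.4 to 0.81 CPM (-4.22 ± 0.47), and *Creb1* (-1.23 ± 0.26), *Rfxank*, a subunit of the X box factor (-1.19 ± 0.37), and *Nfya*, a subunit of the Y box factor (-1.02 ± 0.23), fell too. In monocytes 3 of 13 were lower, *Nfya* (-1.43 ± 0.22), *Irf8* (-1.32 ± 0.22) and *Creb1* (-1.04 ± 0.21), and *Socs1* was higher (2.03 ± 0.45), against 14.4% and 14%. In microglia 7 of 14 were lower and 4 higher, against 35.1% and 30.3% of all genes, among them *Prdm1*, a repressor of *Ciita* (-2.32 ± 0.15), *Irf4* (-2.13 ± 0.17), *Creb1* (-1.49 ± 0.10), *Nfya* (-1.27 ± 0.11), *Rfxank* (-0.90 ± 0.12), *Irf8* (-0.39 ± 0.11) and *Socs1* (1.91 ± 0.19). For *Nfyc*, called higher in microglia (0.46 ± 0.09), the mean CPM went from 35.6 to 29.4, so its direction depended on the scale.

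The genes of processing and turnover were called in both directions, with 1 lower and 1 higher of 12 in B-cells (4.75% and 4.98% of all genes), 2 and 3 of 13 in dendritic cells (20.5% and 20.5%), 5 and 2 of 14 in macrophages (23.9% and 23.8%), 1 and 3 of 14 in monocytes (14.4% and 14%) and 6 and 5 of 14 in microglia (35.1% and 30.3%). *Ctsl*, the protease cathepsin L, rose in all 5 classes, by 2.42 ± 0.31 in B-cells, 3.96 ± 0.36 in dendritic cells, 2.87 ± 0.16 in macrophages, 2.43 ± 0.21 in monocytes and 2.90 ± 0.17 in microglia. *Ctsd*, cathepsin D, fell in B-cells (-1.47 ± 0.27), dendritic cells (-0.88 ± 0.29), macrophages (-1.54 ± 0.14) and microglia (-1.73 ± 0.20), and *Ctsh*, cathepsin H, in macrophages (-1.32 ± 0.16). *Cd83*, which limits the turnover of class II at the surface, fell in macrophages (-4.17 ± 0.37), monocytes (-4.47 ± 0.31) and microglia (-2.25 ± 0.30). *Marchf1*, a ubiquitin ligase for class II, fell in dendritic cells (-1.14 ± 0.33) and rose in macrophages (1.22 ± 0.19) and microglia (1.03 ± 0.14). In dendritic cells *Sppl2a*, a protease that cleaves the invariant chain remnant (1.44 ± 0.25), and *Lamp1*, a lysosomal membrane protein (1.06 ± 0.22), rose, whereas both fell in microglia (-0.48 ± 0.12 and -0.34 ± 0.12). *Ifi30*, a thiol reductase of endosomes, rose in monocytes (0.68 ± 0.20) and microglia (1.63 ± 0.17), and *Rab7*, a GTPase of late endosomes, in monocytes (0.53 ± 0.17). In microglia *Ctss* (0.65 ± 0.16) and *Rab7* (0.47 ± 0.11) were called higher while their mean CPM went from 8384 to 7927 and from 264 to 220, so their direction depended on the scale.

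Of the cytokine signals, 0 of 6 were called in B-cells, 2 lower and 3 higher of 9 in dendritic cells (20.5% and 20.5% of all genes), 5 and 3 of 9 in macrophages (23.9% and 23.8%), 2 and 1 of 9 in monocytes (14.4% and 14%) and 4 and 2 of 9 in microglia (35.1% and 30.3%). *Ifngr1*, a chain of the interferon-γ receptor, fell in dendritic cells (-2.51 ± 0.29), macrophages (-1.05 ± 0.18), monocytes (-1.13 ± 0.20) and microglia (-0.50 ± 0.12). *Tgfb1*, a cytokine that restrains immune cells, fell in dendritic cells (-2.25 ± 0.31), macrophages (-0.87 ± 0.17) and microglia (-1.03 ± 0.12), and *Jak2*, a receptor kinase, rose in dendritic cells (1.70 ± 0.26) and macrophages (0.92 ± 0.22). The receptor chains of interleukin 10 fell, *Il10rb* in macrophages (-1.44 ± 0.13) and microglia (-0.56 ± 0.10) and *Il10ra* in macrophages (-0.92 ± 0.16), monocytes (-1.5 ± 0.29) and microglia (-1.41 ± 0.14). *Il4ra*, of the interleukin 4 receptor, rose in dendritic cells (1.41 ± 0.30), macrophages (2.02 ± 0.14), monocytes (1.35 ± 0.18) and microglia (1.95 ± 0.13), and *Csf2rb*, of the GM-CSF receptor, in dendritic cells (1.21 ± 0.20), macrophages (1.12 ± 0.16) and microglia (1.22 ± 0.11).

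The costimulatory partners of class II were called in no direction in B-cells (2 tested). In dendritic cells 4 of 5 rose and 1 fell (20.5% and 20.5% of all genes), with *Cd80* (3.73 ± 0.37), *Cd274* (3.71 ± 0.51), *Cd40* (2.13 ± 0.33) and *Cd86* (1.5 ± 0.26) higher and *Icosl* (-1.17 ± 0.33) lower. In macrophages 2 of 5 rose, *Cd40* (2.94 ± 0.20) and *Cd274* (2.70 ± 0.36), and 2 fell, *Icosl* (-1.04 ± 0.26) and *Cd86* (-0.73 ± 0.17), against 23.8% and 23.9%. In monocytes *Cd274* (1.85 ± 0.52) and *Cd80* (1.27 ± 0.27) rose and *Icosl* fell (-1.15 ± 0.31), 2 and 1 of 5 against 14% and 14.4%. In microglia 3 of 6 were higher and 1 lower, against 30.3% and 35.1%. *Cd40* rose from a mean of 0.86 to 21.7 CPM (5.43 ± 0.25), *Cd274* rose (2.43 ± 0.21) and *Icosl* fell (-0.43 ± 0.14). *Cd86* was called higher (0.37 ± 0.13) while its mean CPM went from 280 to 217, so its direction depended on the scale.

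**Figure D5:**
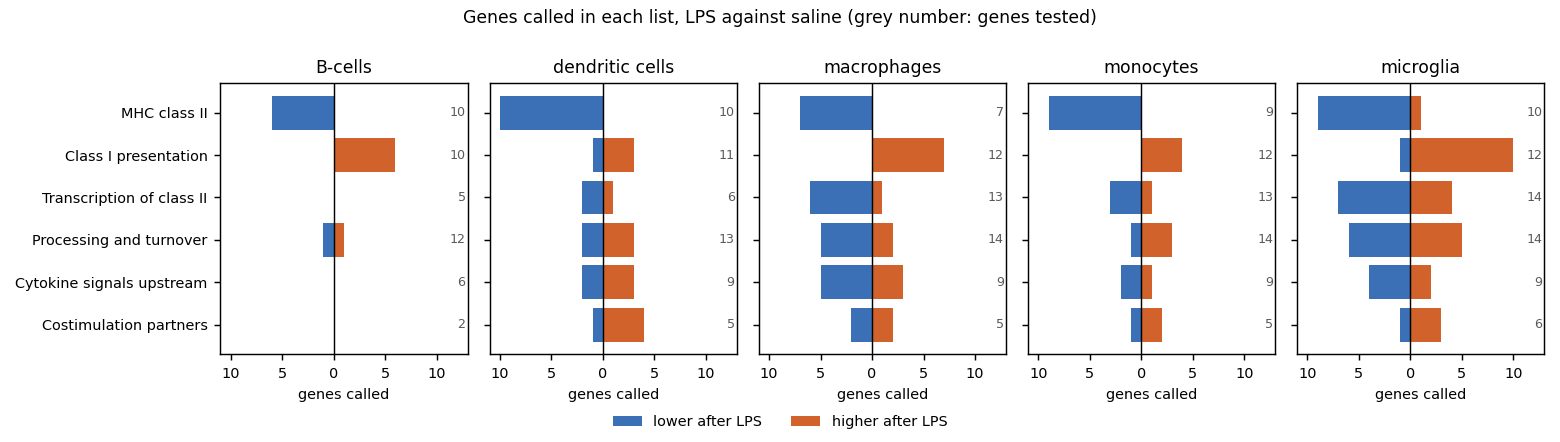
Number of genes of each list called lower (blue, to the left) or higher (orange, to the right) after LPS in each class, with the number tested in grey. Class II genes lie on the left in every class, apart from 1 in microglia, and class I genes mostly on the right.

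Over the 40 combinations of class and library, the genes most like the mean log2 level of *H2-Aa*, *H2-Ab1*, *H2-Eb1* and *Cd74* were *Tpt1* (Pearson r = 0.888), *Mndal* (0.818), *Cxcr4* (0.795), *Arhgap15* (0.793) and *Cox7a2l* (0.788), among 1837 genes tested in all classes. Among the members, r was 0.852 for *Ciita*, 0.756 for *H2-DMb2*, 0.606 for *H2-DMa*, 0.464 for *H2-Ob*, 0.460 for *H2-DMb1* and 0.303 for *H2-Oa*. The points share libraries and depth, and these values are a description. *H2-DMb1* and *H2-DMb2* share 26.6% and 25.2% of the 50-base words of their transcripts, so that reads may be split between them. Over the last 500 bases these shares are 20.4% and 0%. *H2-Eb1*, *H2-DMa*, *H2-Oa* and *Ciita* overlap other genes on the opposite strand. On the same strand *H2-DMa* overlaps *CR974462.3* and *Cd74* overlaps *Mir5107*. Whether counting used the strand is not given in the sources used here.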

How the data were processed

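CD45+ brain cells of 8 mice were profiled with PIPseq. Per the study's methods the authors used PIPseeker, which aligns with STAR, on a GENCODE mouse genome written GRCmm39, and deposited raw UMI counts per gene and barcode for all barcodes. The submitters' processing notes name Seurat 4. The promoters come from RefSeq on GRCm38.p6, another build, and no coordinates were converted. The labels give the mice as 5 to 6 months old, whereas the study's methods give a lower range.

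Cells with 800 to 44999 counts, 250 to 6499 genes and under 5% mitochondrial reads were kept. The study's further filter on complexity was not applied. A cell entered a class when its markers exceeded the free RNA expectation 3-fold, microglial markers stayed under 1 in 3 of it, the next list was exceeded 2-fold and at least 3 markers were detected. Microglia needed a microglial list at 0.5 or more of the free RNA expectation, at least 3 of its markers and every other list below 2-fold. These thresholds were set after the data were seen, and the members and gene lists were chosen with earlier results of these data known. All 10 members were named in each class, and of each list up to 4 genes per class, those called with the largest change, and the 5 genes whose levels correlated most with *H2-Aa*, *H2-Ab1*, *H2-Eb1* and *Cd74*. Genes outside this rule were named after their values were seen: in microglia *Tap2*, *Tapbp*, *Nfyc*, *Ctss* and *Rab7*, whose direction depends on the scale, and *Marchf1* in macrophages and microglia; a gene named in 1 class is given in every class that called it. Scrublet's automatic threshold marked 0.00756% to 0.736% of cells, under 0.5% in 7 of 8 libraries, so it did not work here; doublets stayed in, and leaving out the top 8% of scores is an alternative.

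UMIs were summed per class and library (30547 to 73589095 UMIs) and tested with edgeR 4.0.16 (quasi-likelihood F-test, TMM factors, filterByExpr, at least 10 cells a library), checked on simulated data. SEs are the absolute log2 change over the root of F. DESeq2 1.42.0 was an alternative. CPM used no scaling factor. Shares and ratios were compared with exact two-sided permutation tests (SciPy 1.17.1), whose smallest p for 4 against 4 is 0.0286. Intervals and floors cover counting error only.

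Replicate numbers are the capture batch in the labels and thus pair the libraries. Deviations of same-numbered libraries from their group means correlated at 0.146 to 0.668 in microglia, 0.175 to 0.355 in monocytes, 0.0108 to 0.253 in macrophages, -0.0173 to 0.141 in dendritic cells and 0.0136 to 0.192 in B-cells (6 pairs of groups each). Main fits had no block. Dose and time are those of the labels.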

Additional observations from a re-analysis of the deposited data

Results flagged for a closer look

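Dixon's test at 4 libraries per group marked 8 of 99 sets of member values, where chance gives about 1 in 20. In B-cells *H2-DMb1* was at 80.7 CPM in saline DMSO 2, below 142 to 143 CPM in the other saline libraries. In dendritic cells LPS inhibitors 1 was low in *H2-Aa* (483 CPM) and *H2-Eb1* (806 CPM), and LPS DMSO 2 was high in *H2-DMb2* (126 CPM). In macrophages *Ciita* was at 16.5 CPM in saline DMSO 1, below 33.9 to 34.8 CPM in the other saline libraries. In monocytes *H2-DMa* was low in saline DMSO 2 (175 CPM) and *H2-Ob* high in LPS DMSO 2 (2.44 CPM). In microglia *H2-Eb1* was high in saline inhibitors 2 (55.6 CPM).

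The LPS change differed between classes by the test of the difference itself. Between macrophages and microglia 7 members were called (21.9% of all genes), of which *H2-Aa* and *H2-Eb1* missed the exact permutation test (p = 0.0571 and 0.343) and *Ciita* rests on 0 UMIs in LPS macrophages. Between monocytes and macrophages 2 were called (13.3% of all genes), between dendritic cells and macrophages 4 (15.5%) and between B-cells and dendritic cells 10 (11.4%). The last count was 6 with no filter on low counts.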

How the results depend on the processing

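No value past its test, of the members, their counts, shares or free RNA levels, reversed among the alternatives run. The share difference in B-cells, LPS minus saline, was 0.548 points in cells thinned to 800 UMIs and -2.74 with at least 2 UMIs, past the test in neither. The genes of the other lists were not refitted in the alternatives. In microglia the direction of *Tap2*, *Tapbp*, *Nfyc*, *Ctss*, *Rab7* and *Cd86* was opposite in mean CPM. Of the alternative values for single members, 2191 kept their side of the threshold, 58 lost it and 30 gained it. In B-cells the 6 calls became 3 in the inhibitor libraries alone, 1 in the DMSO libraries alone, 1 with the study's threshold of 2 on the log2 scale, and 3 to 8 with 1 library left out. In microglia the study's threshold left 3. For monocytes against macrophages the 2 calls became 1 with RLE factors, 4 with no filter on low counts, 1 with free RNA subtracted and 1 to 6 with 1 library left out; for B-cells against dendritic cells the 10 became 6 with no filter. The share difference, LPS minus saline, in dendritic cells was no longer past the test with cells not thinned (-2.54 points) and thinned to 1500 UMIs (-5.54), and that in macrophages passed it with cells not thinned (-12.8) and with at least 2 UMIs (-17.8). The cause was not tested. With the replicate block, 6, 10, 8, 10 and 10 members were called after LPS in B-cells, dendritic cells, macrophages, monocytes and microglia, with 8 of 10 members passing the filter in macrophages and all 10 in monocytes, and the block ended none of these calls. With the ex vivo treatment added to the block, B-cells had 7. Added after the data were seen: a looser gate, library totals alone, microglia with under 3 UMIs of the chains (chosen by the members themselves on counts not thinned, so nothing is read from it), and dendritic cells by maturity markers. Dendritic cells without maturity markers (1 LPS cell), or with 2 maturity markers (2 to 9 saline cells a library), could not be fitted. Depth limits the low members: 14 to 46 B-cells per LPS library, and *Ciita* and *H2-Oa* near 0 in several classes.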

Other observations

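Class II UMIs were also found in gated cells outside the 5 classes. In NK cells, *Cd74* was at 4838, 174, 89.2 and 4675 CPM in the saline libraries and 33.0, 259, 713 and 159 CPM in the LPS libraries. Single cells carried much of these levels: 1 of 28 NK cells held 84.0% of the *Cd74* UMIs in saline DMSO 1 (4838 CPM), 1 of 87 held 31.7% in saline inhibitors 2 (4675 CPM) and 1 of 44 held 88.6% in LPS inhibitors 1 (713 CPM). In T-cells *Cd74* was at 2727 to 5098 CPM after saline and 267 to 792 CPM after LPS, and in neutrophils at 604 to 3697 and 42.2 to 480 CPM. Few cells weighed there too: 2 of 121 T-cells held 65.6% of the *Cd74* UMIs in saline inhibitors 1 (2727 CPM), 1 of 55 neutrophils held 58.4% in saline inhibitors 1 (3697 CPM) and 3 of 285 held 85.2% in LPS DMSO 1 (480 CPM). The same was seen within the 5 classes, in microglia and monocytes as given above. In macrophages the top 1% of cells held 8.68% to 18.2% of the *H2-Ab1* UMIs after saline and 22.7% to 42.1% after LPS. In dendritic cells 1 cell held 5.79% to 9.52% of them in the saline libraries. After LPS 1 or 2 cells held 26.4% to 36.6%. The NK classes held 28 to 93 cells a library.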
